A study of Mus musculus with 5 samples.

Results

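Fga, Fgb and Fgg encode the Aα, Bβ and γ chains of fibrinogen, F3 encodes tissue factor, and Plat, Plau and Plaur encode tissue-type plasminogen activator, urokinase and the urokinase receptor. These 7 genes, of 32285 in the count matrix of mouse kidney cells, were taken by their symbols, and they had been chosen by their UMI counts, since an earlier look at the same matrix had seen them lead injured tubule cells. Their excess in cells with injury markers is therefore a description, given with no test.

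Fibrinogen is a plasma protein that hepatocytes make in large amounts, and thrombin cleaves it to the fibrin of a clot. Tissue factor is a membrane protein that binds factor VII and so starts clotting. Tissue-type plasminogen activator and urokinase turn plasminogen into plasmin, which dissolves fibrin, and the urokinase receptor holds urokinase at the cell surface. In the kidney, tissue-type plasminogen activator is known from glomerular and vascular cells, and urokinase from tubule cells, which release it into the urine.

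The study took kidneys after unilateral ischemia-reperfusion (UIR), in which the left renal pedicle was clipped and the right kidney was left intact. Kidneys were taken on day 1, 3, 14 or 28, and sham kidneys had the same operation without the clip. The labels give 1 sample for each of the 5 conditions, and the methods give 3 mice per kidney sample, all male C57BL/6J mice of 6 to 8 weeks. The methods also describe a merge of more matrices than the 5 libraries analysed here, and how the 2 relate is not given in the sources used here. The count matrix held 5 libraries, told apart by a number at the end of each barcode, and the labels do not tie that number to sham or to a day. All conditions were therefore 1 pooled sample, libraries are named by number only, and no p-value was computed. Levels are in CPM, the unique molecular identifiers (UMIs) of a gene per 1000000 UMIs of the cells concerned. The chemistry reads the 3′ end of transcripts, so levels were compared between cells and not between genes. All intervals are 95% intervals (exact Poisson for levels, exact binomial for ratios, Clopper-Pearson for shares) that cover counting error only.

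After filters, 57737 cells were left, with 10020, 11311, 19112, 8239 and 9055 cells in libraries 1 to 5. The median depth was 4605 UMIs per cell, and library medians lay between 4038 and 5344 UMIs. Library 3 stood apart from the others in its free RNA, since its low barcodes (ranks 45000 to 90000) held 277 UMIs on average, against 55.0 to 140 in the other libraries. In 356 cases a barcode sequence was a cell in more than 1 library (713 cells, 1.23%). The labels name goblet cells as the cell type, but the 8 goblet markers summed to 0.672 CPM over all cells, with Zg16 at 0.

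Cells were placed in classes by marker genes that did not include the 7 genes. A relative score was used, which is the share of a cell's UMIs on a class's markers divided by the median of that share in the 200 cells of highest share. Proximal tubule-like cells (42472) made up 73.6% of all cells. Injured tubule-like cells (2024) scored at least 2 times as high for injury markers as for any other class, and they held few proximal tubule markers. The injury markers were Havcr1, Krt20, Krt8, Krt18, Sox9, Cryab, Tnfrsf12a, Sprr2f, Lcn2, Clu, Spp1 and Cldn4. Distal classes held them too, at a median of 186 per 10000 UMIs in principal cell-like and 60.3 in thick ascending limb-like cells. In proximal tubule-like cells the median was 18.6. A further 4436 cells carried proximal tubule and injury markers with neither score 2 times the other, and they are called proximal tubule-like cells with injury markers. Library 3 gave 82.4% of the injured tubule-like cells and 90.1% of the proximal tubule-like cells with injury markers. Library 5 gave only 2 and 10 cells of these classes, so its values in them are not shown. Among the 10 leading genes of the proximal tubule-like cells with injury markers were Fgb, Fgg and Fga themselves beside Havcr1, Spp1 and Sox9, and those leading genes had been seen before the class was set apart. Injured tubule-like cells were led by Mt2, Lcn2, Hspb1 and Defb1, the last a gene of the distal nephron.

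The fibrinogen genes lie side by side on mouse chromosome 3 (GRCm38, GENCODE vM21 gene models). Fgg is at chr3:83007724-83015049 on the plus strand, Fga at chr3:83026076-83033627 on the plus strand and Fgb at chr3:83040141-83049863 on the minus strand. The 3 genes span 42140 bases, with gaps of 11026 and 6513 bases between them. F3 lies on the same chromosome at chr3:121723537-121735048, plus strand. The others are Plat at chr8:22757727-22782844, Plau at chr14:20836660-20843385 and Plaur at chr7:24462484-24475968, all on the plus strand.

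Since each fibrinogen chain and F3 were higher in proximal tubule-like cells with injury markers, the bases just before their RefSeq start sites (GRCm38.p6) are shown 5′ to 3′ on the strand of the gene. For Fga the 77 bases that fall inside the GENCODE gene model are left off. RefSeq promoter entries matched 5 of the 7 genes, not Plat or Plau. Capitals mark matches, on either strand, to 7 motifs searched in the 250 bases before the start site.
Fgg, chr3:83007474-83007723, plus strand: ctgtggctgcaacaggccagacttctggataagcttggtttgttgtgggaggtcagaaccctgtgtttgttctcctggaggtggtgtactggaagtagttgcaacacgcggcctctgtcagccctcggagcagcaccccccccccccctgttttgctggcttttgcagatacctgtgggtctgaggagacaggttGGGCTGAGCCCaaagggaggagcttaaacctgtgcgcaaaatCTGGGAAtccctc
Fga, chr3:83025903-83026075, plus strand: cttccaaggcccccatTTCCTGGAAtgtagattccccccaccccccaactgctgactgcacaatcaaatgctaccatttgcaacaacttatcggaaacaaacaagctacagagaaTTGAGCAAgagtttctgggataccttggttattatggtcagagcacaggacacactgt
Fgb, chr3:83049864-83050113, minus strand: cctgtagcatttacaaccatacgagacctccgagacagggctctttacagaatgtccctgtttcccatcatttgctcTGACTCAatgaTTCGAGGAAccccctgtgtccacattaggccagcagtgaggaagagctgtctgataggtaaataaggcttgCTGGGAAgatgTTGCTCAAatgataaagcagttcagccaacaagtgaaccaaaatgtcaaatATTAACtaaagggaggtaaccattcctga
F3, chr3:121723287-121723536, plus strand: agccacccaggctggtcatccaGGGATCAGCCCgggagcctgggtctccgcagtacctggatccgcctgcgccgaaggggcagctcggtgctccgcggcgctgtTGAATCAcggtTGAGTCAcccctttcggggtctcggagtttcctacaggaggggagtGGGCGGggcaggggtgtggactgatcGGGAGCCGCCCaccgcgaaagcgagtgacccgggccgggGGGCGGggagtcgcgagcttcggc

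Motifs other than NF-kB are written with N for any base, and the share is that of 32851 mouse promoters of this length with a match. C/EBP (TTGCNNAA, in 9.56% of promoters) and STAT (TTCNNNGAA, 7.02%) each matched once in Fga and once in Fgb and not in Fgg or F3. The interleukin-6 type II element (CTGGGAA, 9.1%) matched once in Fgg and once in Fgb. An HNF1 half-site (GTTAAT, 6.43%) matched once in Fgb, 29 bases before the start site, and once in Fga in the stretch that is not printed. AP-1 (TGANTCA, 6.75%) matched 2 times in F3 and 1 time in Fgb. The GC box (GGGCGG, 32.7%) matched 3 times in F3 and in none of the fibrinogen chains. The NF-kB motif (45.8%) matched 4 times in F3 and 2 times in Fgg, in pairs of overlapping matches on opposite strands. A match describes these letters and is not evidence that a factor binds there.

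In the pooled counts, all 3 fibrinogen chains were at their highest in proximal tubule-like cells that also carried injury markers. Fgg, the γ chain, stood at 28.5, 90.1, 167, 61.9 and 41.3 CPM in the proximal tubule-like cells of libraries 1 to 5. In proximal tubule-like cells with injury markers it stood at 119, 822, 481 and 818 in libraries 1 to 4. Within each of the 4 libraries the class with injury markers was higher, although the lowest of its values (library 1) was below the proximal tubule-like level of library 3. Fga, the Aα chain, went from 14.4, 41.4, 76.5 and 33.7 in proximal tubule-like cells of libraries 1 to 4 to 49.4, 332, 210 and 321 in those with injury markers. Fgb, the Bβ chain, went from 3.85, 7.90, 31.1 and 11.8 to 26.7, 98.0, 122 and 166 in the same libraries. Library 3 had the highest level of each chain in proximal tubule-like cells and library 1 the lowest. Free RNA was high in library 3, and its proximal tubule-like cells also differed by segment. They had 2499 cells on the Slc5a12 side and 229 on the Slc7a13 side described below, against 588 and 2633 in library 1. The part of free RNA and of segment in this order was not tested. In the pooled order of 17 classes, Fgg and Fga came next in injured tubule-like cells (136 and 55.4) and then in proximal tubule-like cells (81.0 and 39.3). For Fgg the interval of proximal tubule-like cells overlapped that of neutrophil-like cells (66.6). Fgb came next in fibroblast/pericyte-like and injured tubule-like cells, both at 47.5 with overlapping intervals, and in library 1 both were above the proximal tubule-like cells with injury markers (52.0 and 40.3 against 26.7), with overlapping intervals.

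Summed over the chains, the level was 852 CPM in proximal tubule-like cells with injury markers and 133 in those without. The log2 ratio was 2.68 (2.65 to 2.71). Within libraries 1 to 4 the log2 ratio of the sum was 2.07, 3.17, 1.56 and 3.60, and without library 3 it was 3.54. Of the single chains, Fgb had the largest pooled log2 ratio (3.25), followed by Fgg (2.66) and Fga (2.48). Of the 7 genes, 6 were at least 2-fold higher in this class, where 12.7% of all 16058 genes with at least 20 UMIs were, and none was 2-fold lower, where 5.25% of all genes were. Plau was the exception at a log2 ratio of 0.24. Plaur was past 2-fold in the pooled counts (1.83) and in libraries 1 and 2 (3.89 and 3.01). It was not in libraries 3 (0.90) and 4 (0.84, -0.32 to 1.79). The choice of the genes rests on a contrast of this kind, so nothing is read from that count.

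**Figure D1:**
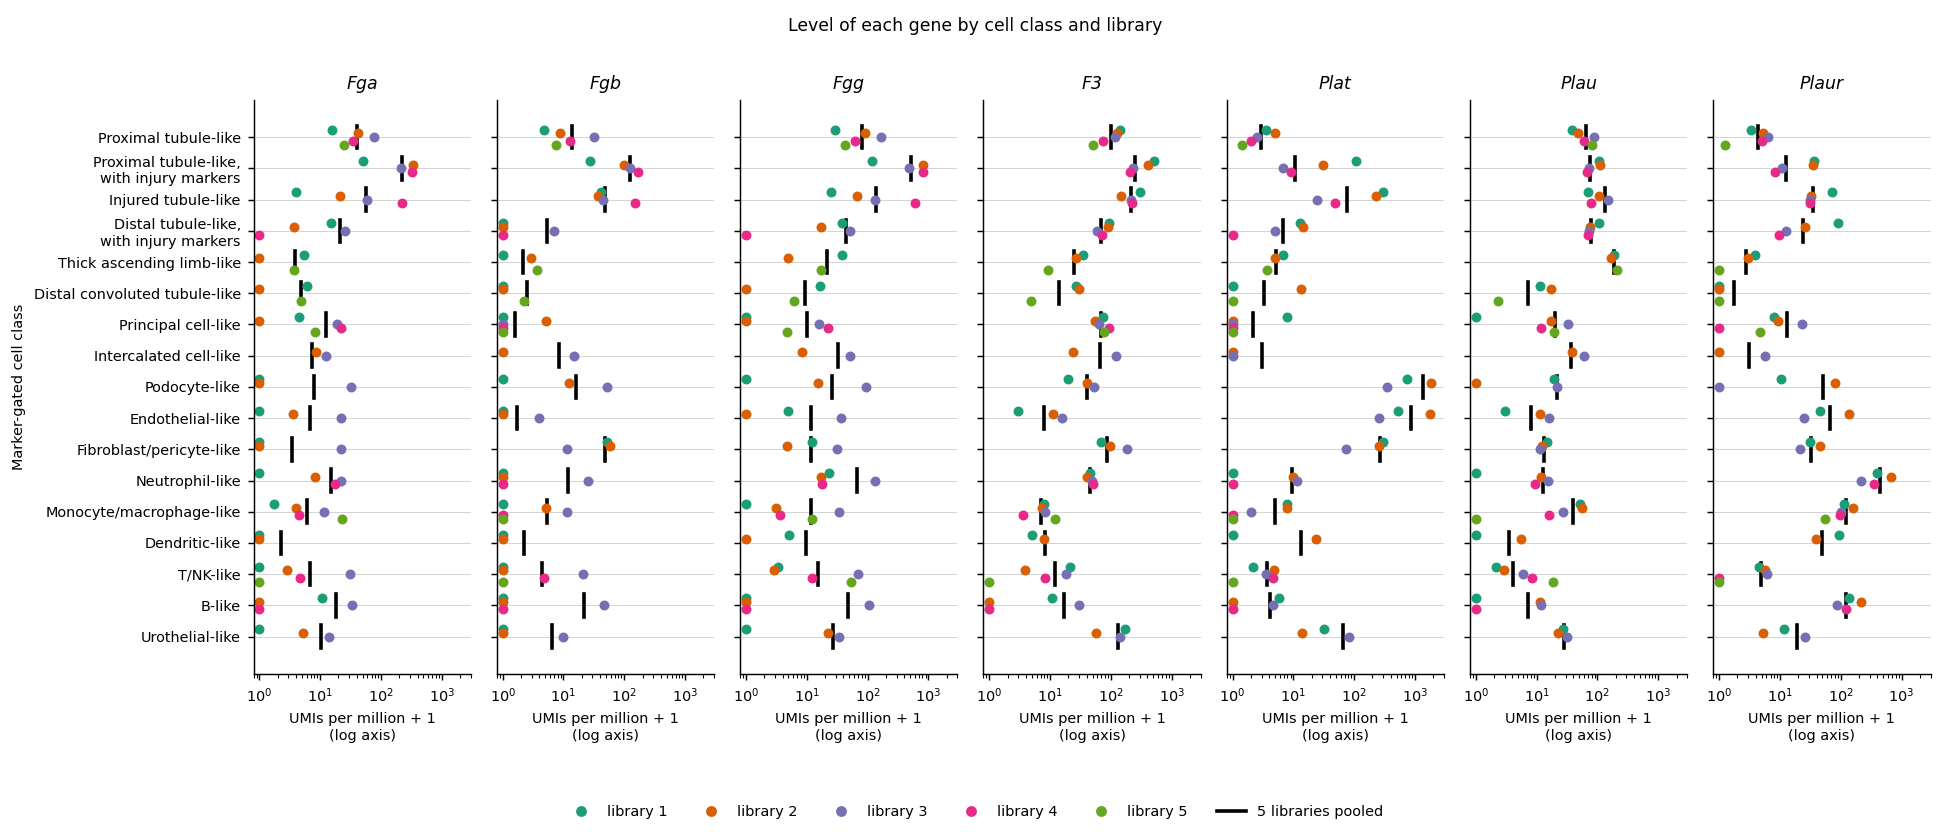
Level of each of the 7 genes (CPM plus 1, log axis) in 17 marker-gated classes, with 1 point per library of at least 20 cells and a black bar for the pooled level. Points at 1 had no UMI. Fga, Fgg and F3 reach their highest pooled bar in proximal tubule-like cells with injury markers (219, 511 and 248.7), Plat in podocyte-like cells (1376), Plau in thick ascending limb-like cells (190) and Plaur in neutrophil-like cells (434).

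Injured tubule-like cells, which held few proximal tubule markers, did not share this level. Their summed chains stood at 239 CPM over all libraries, and the log2 ratio to proximal tubule-like cells was 0.84 (0.79 to 0.90). The pooled ratio hid opposite directions, with values inside libraries 1 to 4 of 0.52, -0.18, -0.23 and 3.17. Without library 3 the pooled ratio was 1.44, and as a mean of the 4 within-library ratios it was 0.82. Fga fell below the proximal tubule-like level in libraries 1 to 3 (log2 ratios of -2.28, -1.02 and -0.41, the first from 3 UMIs with an interval of -4.57 to -0.73) and was above it in library 4 (2.72, 58 injured tubule-like cells). Fgg showed the same signs, at -0.27, -0.44, -0.33 and 3.27, with an interval across 0 in library 1 (-0.92 to 0.31). Fgb alone was higher in every library, at 3.39, 2.19, 0.50 and 3.65. Of the 7 genes, 5 were at least 2-fold higher in injured tubule-like cells in the pooled counts (26.2% of 16310 genes were). None was 2-fold lower in the pooled counts, where 12.9% of all genes were. As a mean over libraries 1 to 4, 3 were higher, with no share of all genes given at that setting, so nothing is read from that count.

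**Figure D2:**
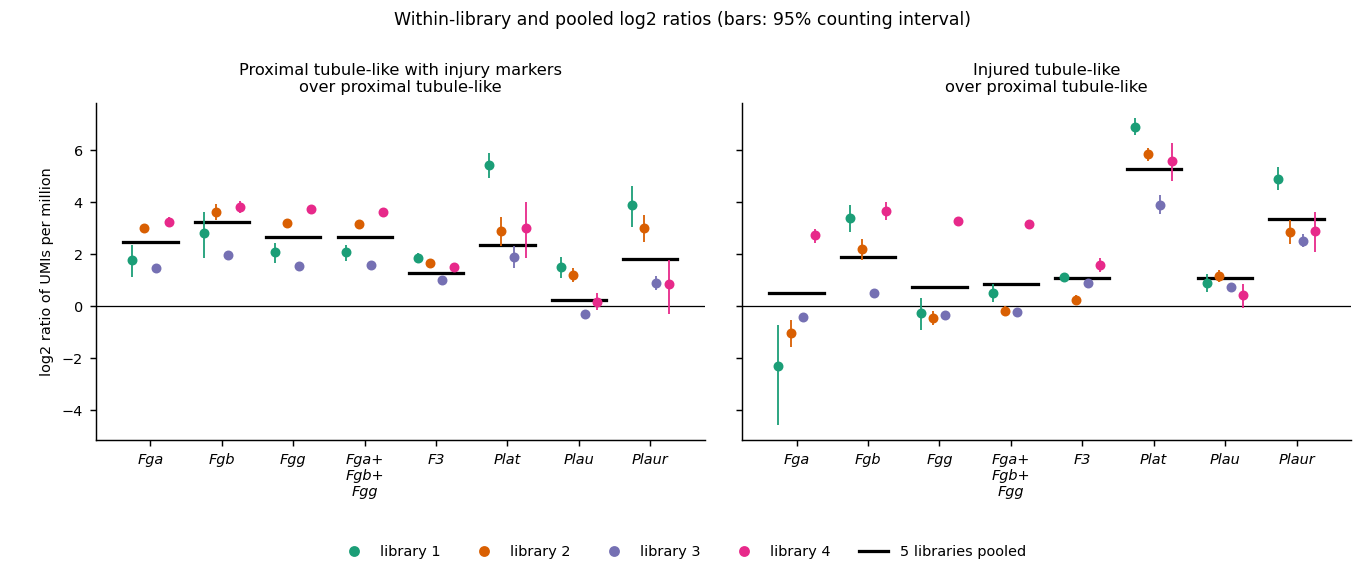
Log2 ratio of CPM over proximal tubule-like cells, for proximal tubule-like cells with injury markers (left) and injured tubule-like cells (right). Points are libraries 1 to 4 with 95% counting intervals and black bars the pooled value. On the left the 4 points of each chain and of F3 are above 0, and on the right those of Fga and Fgg fall on either side of it while those of Plat lie between 3.91 and 6.90.

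Free RNA was measured in barcodes too low to be cells, and it was high in library 3. Its UMIs held Fgg at 13.9, 44.1, 326, 99.01 and 166 CPM in libraries 1 to 5. In libraries 3 to 5 this was above the CPM of proximal tubule-like cells. These CPM give the make-up of the free RNA and not the level that it adds to a cell. Low barcodes of libraries 3 to 5 held 277, 138 and 140 UMIs on average, against medians of 4867, 5590 and 5323 in proximal tubule-like cells. In library 3, cells thinned to 1000 UMIs held a UMI of any chain in 44.6% (42.7 to 46.5) of proximal tubule-like cells with injury markers. The share was 19.7% (18.9 to 20.5) in proximal tubule-like cells and 15.5% (13.7 to 17.5) in injured tubule-like cells. Leukocytes of the same library, which should lack these transcripts, gave 16.6% (12.7 to 21.1) in neutrophil-like, 14.9% in B-like, 14.6% in T/NK-like and 6.04% (4.08 to 8.56) in monocyte/macrophage-like cells. Before thinning, the shares in these 7 classes were 60.2%, 51.8%, 32.6%, 21.2%, 23.4%, 21.2% and 18.6%, at median depths of 2842, 4867, 4206, 1425.5, 1247, 1673 and 3832 UMIs. The thinned share of injured tubule-like cells in library 3 thus lay among those of the 3 shallower leukocyte classes and above that of monocyte/macrophage-like cells, whose depth was nearest to theirs. The share of proximal tubule-like cells lay within the interval of neutrophil-like cells. Both classes were above monocyte/macrophage-like cells, with intervals apart. Against the 3 shallower leukocyte classes, whether either was above background in library 3 was not settled by these values. Proximal tubule-like cells with injury markers stood well above all 4 leukocyte classes.

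Outside library 3 free RNA held less Fgg, but the CPM in low barcodes of libraries 4 and 5 was still above that of proximal tubule-like cells. T/NK-like cells held Fgg at 2.36, 1.89, 11.1 and 51.9 CPM in libraries 1, 2, 4 and 5. The last value came from 3 UMIs in 32 cells, and its interval (10.7 to 152) held the 41.3 of proximal tubule-like cells. Whether the proximal tubule-like cells of library 5 as a whole were above background was not settled by this T/NK-like value. Within these proximal tubule-like cells, Fgg stood at 147 CPM (137 to 158) on the Slc5a12 side described below. On the Slc7a13 side it stood at 13.7 (12.4 to 15.1). In library 4, the 58 injured tubule-like cells held Fgg at 596 CPM and the proximal tubule-like cells with injury markers 818. The 338 Fgg UMIs behind the first value came from 13 of the 58 cells. Among tubule cells of library 4 with a relative injury score of at least 0.1, the 24 of lowest proximal tubule score held no Fgg UMI.

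Among tubule cells with injury markers, Fgg and Fga were lowest where the fewest proximal tubule markers were left. Cells of the 3 tubule classes with a relative injury score of at least 0.1 were split by their relative proximal tubule score into 715, 816, 4696 and 3811 cells (scores from 0, 0.03, 0.1 and 0.3). From the lowest to the highest of these bins, Fgg stood at 15.7, 81.8, 435 and 484 CPM. In libraries 1 to 3 the same bins gave Fgg at 14.2, 30.7, 124 and 335, then 14.6, 164, 516 and 760, then 17.5, 81.4, 422 and 421. Fgg was thus lowest where proximal tubule markers were lowest in each of them, and in library 4 it was at 0 in the 24 cells of the lowest bin. Between the third and the highest bin of library 4, Fgg went from 835 (776 to 898) down to 568 (541 to 595) and Fga from 365 to 213. Pooled Fga went from 9.31 in the lowest bin to 198 in the highest. Fgb stood at 16.1, 32.8, 112 and 81.7 in the pooled bins, but in library 1 it was nearly level, at 38.4, 43.9, 32.7 and 34.2. Umod, the uromodulin gene of the thick ascending limb, ran the other way (1595, 1827, 242 and 88.4 CPM), so the lowest bins also held cells with a distal marker, and their part in the difference was not tested.

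**Figure D3:**
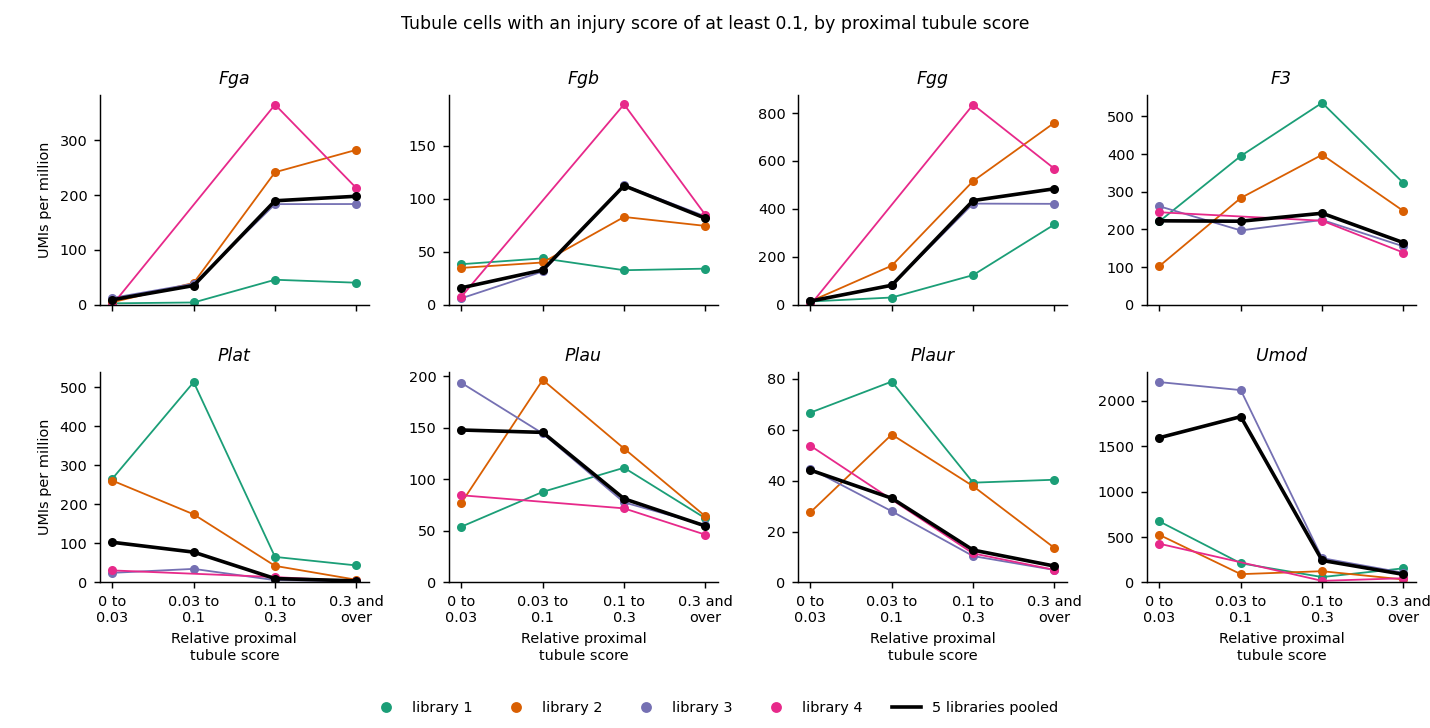
Levels (CPM) in tubule cells with a relative injury score of at least 0.1, in 4 bins of relative proximal tubule score, for the 7 genes and Umod. Coloured lines are libraries 1 to 4, a bin with fewer than 20 cells is left out, and the black line is the pooled value. Fga and Fgg climb from the lowest to the higher bins, Plat and Plaur fall in the pooled line, and the black line of F3 stays between 165 and 243.

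Across all proximal and injured tubule cells, the pooled chains also climbed with the injury score itself up to its 4th bin. Over 5 bins of relative injury score (from 0, 0.01, 0.03, 0.1 and 0.3), pooled Fgg stood at 17.5, 48.0, 149, 394 and 319 CPM. Fgb stood at 1.90, 8.85, 22.9, 83.9 and 81.3 in the same bins. In library 5, with few injured cells, Fgg went from 15.5 in the first bin to 593 in the 47 cells of its 4th. Median depth fell from 5524 UMIs in the first pooled bin to 3441 in the 4th, and from 5927 to 3218 in library 5. The part of depth in the climb was not tested. Library 4 was the only one of libraries 1 to 4 in which Fgg went on rising into the last bin, to 1032.

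Single cells rarely held a UMI of each chain. At 1000 UMIs, 55.1% of proximal tubule-like cells with injury markers had no chain UMI, and 2.17% had all 3 chains. In proximal tubule-like cells 89.7% had none and in injured tubule-like cells 85.9%. Fgb was more frequent in cells with Fgg. It was seen in 17.5% of the 1022 proximal tubule-like cells with injury markers that had an Fgg UMI and in 7.69% of the 2107 without. F3 did not follow them, since it was seen in 16.9% of the cells with an Fgg UMI and 17.5% of those without. Within library 3 the F3 shares were 17.7% and 16.8%. F3 and Plau went together, with Plau in 10.54% of the 541 cells with an F3 UMI and 5.603% of the 2588 without.

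Within proximal tubule-like cells, fibrinogen lay on the side of the early segments. Cells were split by their UMIs of Slc5a12, a lactate transporter of the early proximal tubule, and Slc7a13, an amino acid transporter of its last segment (at least 3 UMIs, at least 80% of them from 1 gene). Fgb stood at 16.97, 17.95, 33.4, 23.5 and 29.4 CPM on the Slc5a12 side of libraries 1 to 5 (6427 cells in all). On the Slc7a13 side (9620 cells) it stood at 0.461, 0.996, 8.09, 1.88 and 0.984. The sides did not overlap, and pooled values were 25.7 and 1.11. Fgg stood at 130 and 22.3 and Fga at 59.9 and 19.2 in the pooled counts, each with the same direction in all 5 libraries. Injury marker UMIs were also more frequent on the Slc5a12 side (55.4 against 12.9 per 10000 UMIs), and their part in the difference was not tested.

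**Figure D4:**
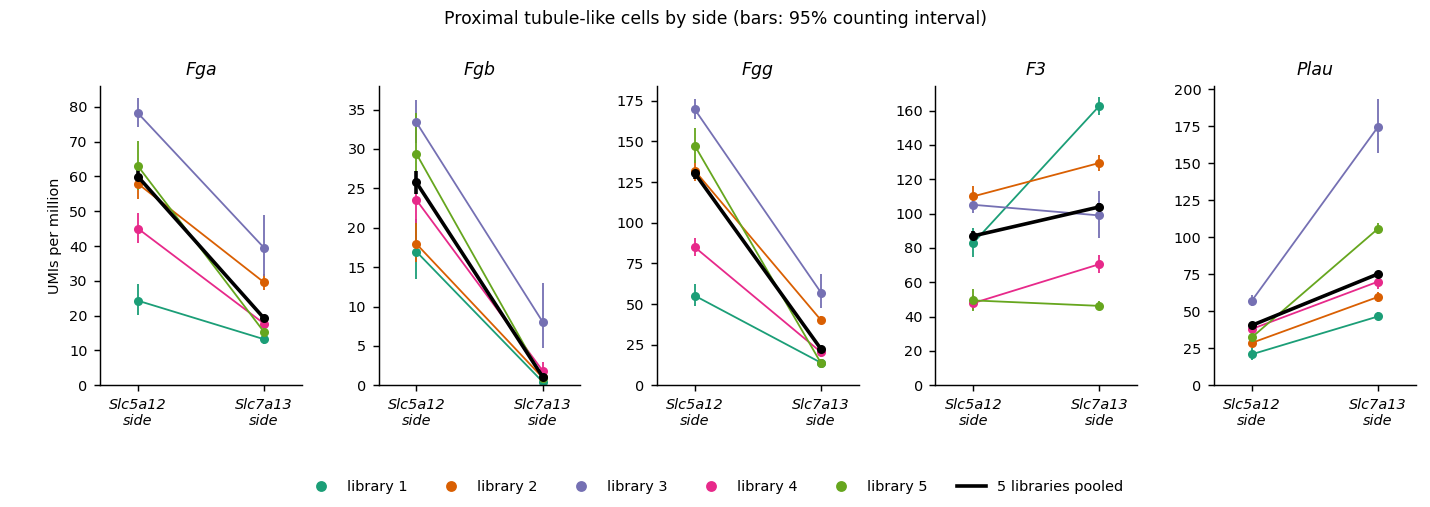
Levels (CPM, with 95% counting intervals) in proximal tubule-like cells on the Slc5a12 side and the Slc7a13 side, for Fga, Fgb, Fgg, F3 and Plau. Coloured lines are libraries 1 to 5 and the black line is the pooled value. The lines of the 3 fibrinogen chains fall in every library, those of Plau rise in every library, and those of F3 rise in libraries 1, 2 and 4 and are nearly level in libraries 3 and 5.

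In a stromal class, Fgb made up most of the fibrinogen UMIs. Fibroblast/pericyte-like cells held Fgb at 52.0 and 56.3 CPM in libraries 1 and 2, where T/NK-like cells had none. In library 3 it was 10.3, from 1 UMI, where T/NK-like cells were at 20.1. Fgb made up 78.4% (67.3 to 87.1) of the 74 fibrinogen UMIs of this class, while Fga had 3 and Fgg 13. The share of Fgb was 14.5% (13.8 to 15.3) in barcodes too low to be cells, 9.60% in proximal tubule-like cells and 14.2% in those with injury markers. The 58 Fgb UMIs of the class came from 9 of its 159 cells, and the interval of the share counts them as separate draws. Whether the same cells held Fga or Fgg was not tested. At 1000 UMIs per cell, Fgb was seen in 2 of 76 cells of the class in library 1 (2.63%, 0.320 to 9.19). In library 2 it was seen in 1 of 45 (2.22%, 0.0562 to 11.8). The median depths of the class there were 8066 and 3511 UMIs. Injured tubule-like cells showed a like tilt in library 1, where Fgb had 41 of 68 fibrinogen UMIs (60.3%, 47.7 to 72.0), and in library 2 (29.3%, 23.1 to 36.01), while in libraries 3 and 4 it had 18.8% (17.2 to 20.6) and 15.3% (12.4 to 18.6), where low barcodes had 15.2% and 14.6%. In libraries 1 and 2, Fgb was seen in 12.2% and 9.64% of injured tubule-like cells, against 0 of 511 and 0 of 444 T/NK-like cells, for which 3 UMIs would make 3.53 and 2.83 CPM (median depths of 5402 and 8103 against 1504 and 1931 UMIs). At 1000 UMIs per cell it was seen in 2 of 105 (1.90%, 0.232 to 6.71) and 3 of 152 (1.97%, 0.409 to 5.66), against 0 of 449 and 0 of 426. Doublets were not removed by a caller, and the share of cell pairs in these counts was not tested.

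**Figure D5:**
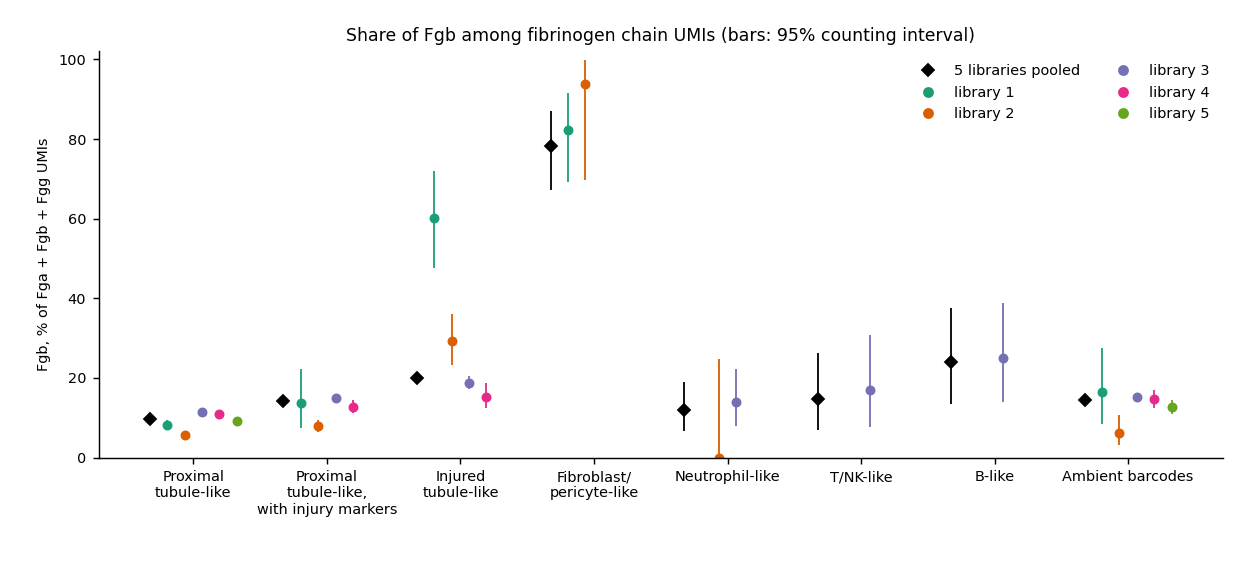
Share of Fgb (%) among the Fga, Fgb and Fgg UMIs of each class and of barcodes too low to be cells, with 95% counting intervals. Black diamonds are the pooled values and coloured points the libraries with at least 10 fibrinogen UMIs. Fibroblast/pericyte-like cells sit at 78.4%, and injured tubule-like cells run from 15.3% to 60.3% over libraries 1 to 4.

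F3 was higher than in proximal tubule-like cells both in those with injury markers and in injured tubule-like cells. It stood at 141, 126, 116, 72.9 and 50.1 CPM in the proximal tubule-like cells of libraries 1 to 5. Proximal tubule-like cells with injury markers held 506, 401, 235 and 205 in libraries 1 to 4, and injured tubule-like cells 304, 147, 214 and 220. Within each of these libraries both classes were above proximal tubule-like cells, and no value of either was below 147. The pooled log2 ratio was 1.29 (1.25 to 1.34) in the class that kept proximal tubule markers and 1.07 (1.01 to 1.12) in injured tubule-like cells, with 1.11, 0.23, 0.89 and 1.60 within libraries 1 to 4 for the latter. Without library 3 these were 1.76 and 1.10. Distal tubule-like cells with injury markers did not reach this level, at 92.8, 89.4, 59.3 and 69.2 CPM in libraries 1 to 4. Each value was below the proximal tubule-like one, but the library 4 interval (39.6 to 112) held the proximal tubule-like 72.9. In libraries 1 and 2 this distal class was above thick ascending limb-like (33.8 and 25.7) and distal convoluted tubule-like cells (25.5 and 28.6), with intervals apart. Principal cell-like cells there (72.6 and 53.6) had intervals that overlapped those of the distal class.

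Over the bins of proximal tubule score among injured cells, pooled F3 stood at 223, 222, 243 and 165 CPM, where Fgg differed between 15.7 and 484. The pooled values hid differences between libraries. F3 stood at 222, 395, 536 and 323 in the bins of library 1 and at 103, 284, 398 and 248.9 in those of library 2, lowest in the lowest bin, against 262, 197, 225 and 155 in library 3. In library 4, with too few cells in the second bin, it stood at 245.7, 223 and 139 in the others, highest in the lowest bin as in library 3. F3 was well above its background in library 3, with a UMI in 13.9% of thinned injured tubule-like cells and 17.1% of proximal tubule-like cells with injury markers, against 5.52% of neutrophil-like and 2.02% of T/NK-like cells. Before thinning these shares were 36.1%, 32.6%, 6.52% and 3.30%. Other cells with F3 were urothelial-like cells at 128 CPM, fibroblast/pericyte-like cells at 86.0 and principal cell-like cells at 68.4. The counting intervals of proximal tubule-like and fibroblast/pericyte-like cells overlapped. Endothelial-like cells (7.10) and monocyte/macrophage-like cells (6.12) were among the lowest. F3 stood at 82.95 and 163 in library 1, 110 and 129.5 in library 2 and 47.9 and 70.5 in library 4 on the Slc5a12 and Slc7a13 sides, higher on the second with intervals apart. In libraries 3 (105 and 98.9) and 5 (49.4 and 46.3) the intervals overlapped.

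Plat was foremost a gene of podocyte-like and endothelial-like cells. Podocyte-like cells held 731, 1831 and 351 CPM in libraries 1 to 3, and endothelial-like cells 530, 1792 and 252. Fibroblast/pericyte-like cells followed at 265 in the pooled counts, then injured tubule-like cells (75.2) and urothelial-like cells (64.1), whose intervals overlapped. Proximal tubule-like cells were between 0.443 and 4.04 in the 5 libraries. Injured tubule-like cells stood at 300.01, 230.1, 23.3 and 47.6 in libraries 1 to 4, above proximal tubule-like cells in each, with a pooled log2 ratio of 5.28 (5.12 to 5.44) that was 6.76 without library 3. The pooled proximal tubule-like level under this ratio (1.93) was not above that of T/NK-like cells (2.66, 1.07 to 5.48), so the size of the ratio is uncertain. In proximal tubule-like cells with injury markers it was 107, 30.0, 5.74 and 8.03. Barcodes too low to be cells held Plat at 8.03, 86.5, 11.1 and 22.8 in these libraries, above the class with injury markers in libraries 2 to 4 and below injured tubule-like cells in each. These values too give the make-up of free RNA and not the level that it adds to a cell. In the pooled counts Plat ran against fibrinogen over the proximal tubule score among injured cells, at 103, 77.6, 9.82 and 3.85 CPM from the lowest to the highest bin. In libraries 2 and 4 it fell from bin to bin. In library 1 it first rose from 266 to 513 between the lowest and the second bin. In library 3 it first went from 24.5 to 34.7, with overlapping intervals.

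The Plat UMIs of injured cells lay with Vcam1, an adhesion gene that is on the list of failed repair genes used below. Among proximal tubule-like cells with injury markers and injured tubule-like cells, Plat stood at 211 CPM in 225 cells with a UMI of Vcam1 and none of Havcr1. It stood at 8.71 in 1284 cells with Havcr1 and no Vcam1, at 199 in 133 cells with both and at 10.3 in 4818 cells with neither. Fgg had the other order, at 129, 505, 280 and 339. F3 differed less, at 213, 281, 320 and 207. In library 2 the Vcam1 and the Havcr1 cells had Plat at 193 and 36.4, and in library 3 at 174.5 and 7.84. In library 2 Fgg was at 182 and 821 in these groups and in library 3 at 186 and 469. Vcam1 cells (median 7748 UMIs) and cells with both transcripts (11210) were deeper than cells with neither (2400), and the part of depth in the grouping was not tested. Nor was the part of cell pairs or of cells from the non-tubule classes with most Plat, since no doublet caller was run.

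Plau was highest in thick ascending limb-like cells, at 187, 166 and 212 CPM in libraries 1, 2 and 5. Proximal tubule-like cells held 36.9, 47.4, 88.5, 58.2 and 79.8 in libraries 1 to 5. Injured tubule-like cells held 68.9, 105, 149 and 77.6 in libraries 1 to 4, with a pooled log2 ratio of 1.08 (1.00 to 1.15) that was 0.68 without library 3. They were above proximal tubule-like cells in each library, with an interval across 0 in library 4 (log2 ratio of 0.42, -0.05 to 0.84). Proximal tubule-like cells with injury markers showed no single direction, at log2 ratios of 1.51, 1.20, -0.30 and 0.18. Within proximal tubule-like cells Plau ran opposite to fibrinogen, with 20.9, 28.7, 57.1, 38.1 and 32.4 CPM on the Slc5a12 side and 46.5, 59.7, 175, 70.0 and 106 on the Slc7a13 side of libraries 1 to 5. Distal tubule-like cells with injury markers (76.3) and proximal tubule-like cells with injury markers (74.5) came next after injured tubule-like cells in the pooled order, and their intervals overlapped.

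Plaur was highest in neutrophil-like cells, and the urokinase receptor is known from myeloid cells. Neutrophil-like cells held 397, 680, 212 and 347 CPM in libraries 1 to 4. B-like cells (123) and monocyte/macrophage-like cells (120) followed in the pooled counts with overlapping intervals. Endothelial-like (64.6), podocyte-like (50.9) and dendritic-like cells (49.1) came next, also with overlapping intervals, so the order did not divide myeloid from other cells. Proximal tubule-like cells were between 0.262 and 5.30 in the 5 libraries. Injured tubule-like cells stood at 70.8, 31.2, 30.5 and 30.0 in libraries 1 to 4, a pooled log2 ratio of 3.35 (3.18 to 3.52) that was 3.98 without library 3. Like Plat, pooled Plaur fell over the proximal tubule score among injured cells, from 44.2 to 33.1, 12.7 and 6.42. In library 1 it stood at 66.8, 79.0, 39.2 and 40.4 and in library 2 at 27.6, 58.2, 37.8 and 13.5, highest in the second bin. In libraries 3 and 4 it fell from bin to bin. T/NK-like cells held 3.80 in the pooled counts, with an interval (1.82 to 6.98) that held the 3.31 of proximal tubule-like cells.

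Of 11 clotting factor genes, 6 had at least 20 UMIs over injured and proximal tubule-like cells, with 2 at least 2-fold higher and 2 lower in injured tubule-like cells. Of all genes, 26.2% were higher and 12.9% lower by this measure. Injured tubule-like cells were also led by a gene of the distal nephron (Defb1). The part of nephron segment in the ratios of this and the following lists was not tested. F13b, the B subunit of the fibrin-linking factor XIII, was a proximal tubule gene that was lower (8.54 against 44.0 CPM, log2 ratio -2.37). Its A subunit F13a1 was at 2.82 against 0.257, and its highest level was in monocyte/macrophage-like cells (163). The prothrombin gene F2 had 16 of the 249392869 UMIs of proximal tubule-like cells. It had 0 of the 12409115 UMIs of injured tubule-like cells, and no direction is read from these counts.

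Of 10 anticoagulant genes, 9 were measured, with 5 higher and 2 lower, beside 26.2% and 12.9% of all genes. Pros1, the protein S gene, had a log2 ratio of 4.72 and the annexin gene Anxa5 3.27. Proc, the protein C gene, fell from 112 to 21.6 CPM (log2 ratio -2.37) and Tfpi2, which encodes a protease inhibitor, from 18.6 to 6.29 (-1.56). Of 12 genes of the plasminogen system, 11 were measured, with 5 higher and 2 lower beside the same shares. Anxa2, part of a plasminogen receptor, went from 10.7 to 493 (5.53). Serpinf2, the inhibitor of plasmin, went from 167 to 15.96 (-3.38) and the protease gene Hpn from 253 to 70.6 (-1.84). Plg itself had 46 UMIs in proximal tubule-like cells and none in injured tubule-like cells, whose UMI total was far smaller, so no direction is read from these counts.

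Of 10 fibrinogen and fibrin receptor genes, 7 were at least 2-fold higher in injured tubule-like cells and none lower, where 26.2% and 12.9% of all genes were. Among them were the integrin gene Itgav (181 against 42.1 CPM) and Itga5 (8.70 against 1.53). Cdh5, which also served as an endothelial marker to place cells, was not among the 7 (0.403 against 0.369). Of 4 receptors for clotting proteases, 2 were measured and both were higher, F2r with a log2 ratio of 5.78 and F2rl1 with 3.81. Of 23 acute phase and interleukin-6 response genes, 19 were measured, with 11 higher and 1 lower, and the same shares of all genes stand beside this list and the next. Lbp (6.19), Osmr (5.23), Cp (5.03) and Lcn2 (7.63), which is also 1 of the injury markers used to place cells, led them, and Fgl1 was lower (-3.33, -5.61 to -1.77, from 3 UMIs). Of 10 failed repair genes, 9 were measured and 7 were higher, led by Akap12 (6.30), Cdh6 (4.90), Vcam1 (4.85) and Ccl2 (4.48).

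The median log2 ratio was -0.75 for clotting factors, 1.21 for anticoagulants, 0.68 for the plasminogen system, 1.59 for fibrinogen receptors, 1.33 for acute phase genes and 3.10 for failed repair genes. Over all 16310 genes it was 0.28. For proximal tubule-like cells with injury markers, the medians were 0.67, 0.47, 0.34, 1.01, 1.73 and 1.52, against 0.12 over all 16058 genes. Acute phase genes there had 12 higher and none lower, failed repair genes 6 higher and none lower, where 12.7% of all genes were higher and 5.25% lower. The acute phase list includes Lcn2, which is also 1 of the injury markers used to place these cells. Osmr, the oncostatin M receptor gene, and Socs3, a target of interleukin-6 signalling, had log2 ratios of 2.97 and 1.73. Il6 itself was highest in fibroblast/pericyte-like cells at 37.7 CPM. The interleukin-6 receptor gene Il6ra was highest in neutrophil-like cells at 96.8 and stood at 1.40 in proximal tubule-like cells with injury markers.

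Markers of other possible sources of clotting transcripts were summed in the same classes. The 6 platelet markers summed to 4.65, 3.30 and 7.82 CPM in proximal tubule-like cells, those with injury markers and injured tubule-like cells, with Gp1bb at 0 in each. The 5 erythroid markers summed to 70.3, 1.998 and 49.6 in the same classes. The 8 hepatocyte markers summed to 335, 124 and 45.3, where summed fibrinogen stood at 133, 852 and 239. Ahsg was at 0 in both classes with injury markers and Serpina1c in the proximal tubule-like one, while the sum was highest in monocyte/macrophage-like cells (399.5), with 4 of the 8 markers at 0. Of 7 measured markers, 3 were at least 2-fold lower in the class with injury markers and 5 in injured tubule-like cells, where 5.25% and 12.9% of all genes were. The part of hepatocyte RNA in the fibrinogen levels was not tested.

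The genes most like each of the 7 in pattern were ranked over 43 groups of at least 50 cells of 1 class in 1 library, by Pearson's r of log2(CPM + 1). The groups share libraries and free RNA, so r is a description. Fga was closest to Spink1 (0.89), Slc13a1 (0.87), Cpn1 (0.87), Apob (0.86) and Gsta2 (0.86), Fgg to Nox4 (0.88), Gstm5 (0.87), Dbi (0.85), Gsta2 (0.84) and Guca2b (0.84), and Fgb to Itih3 (0.84), Cpn1 (0.82), Gm44785 (0.82), Clip4 (0.81) and Steap1 (0.81). F3 was closest to Myo5b (0.85), Gstm5 (0.84), Gpx4 (0.82), Steap1 (0.81) and Tchh (0.80). Plat was closest to Tshz2 (0.93), Tm4sf1 (0.90), Piezo2 (0.89), Zbtb7c (0.89) and Nid1 (0.88), a basement membrane gene. Plau was closest to Ocln (0.78), Snx24 (0.77), Sema3c (0.77), Slc25a48 (0.76) and Inava (0.76), and Plaur to Marcksl1 (0.86), Irak3 (0.84), Marcks (0.84) and Litaf (0.83). Among the 7 themselves, r was 0.84 for Fga with Fgg, 0.82 for Fgb with Fgg, and 0.67 for Fga with Fgb. For F3 it was 0.79 with Fgg, 0.71 with Fgb, 0.65 with Fga and 0.52 with Plau, so Fga and Fgb were no closer to each other than Fgb was to F3. Plat and Plaur had r between -0.30 and 0.27 with the other members.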

How the data were processed

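The authors deposited raw UMI counts per gene and barcode, merged over 5 libraries with no cell called. The submitters' processing notes name Cell Ranger 6.0 and mm10. Of the columns of per-sample values, 0 were left unused. Cells were called per library as Cell Ranger does (first step, then a comparison with the ambient profile at an adjusted p of 0.01 for barcodes of at least 500 UMIs, at most 20000 per library, which in library 3 reached down to 661 UMIs). Left out were those under 200 genes or above 25% mitochondrial counts.

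A class needed at least 2 of its markers, 3 marker UMIs, a relative score of 0.1 and 2 times the score of the next class. Other cells with markers of more than 1 class (1211) or of none (1186) were set apart, and no doublet caller was run. The marker lists covered 15 classes. The members, the markers and the lists (clotting factors, anticoagulants, plasminogen system, fibrinogen receptors, clotting protease receptors, acute phase, failed repair) were chosen with earlier results of these data known.

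Named genes were the 7 members, for each the 5 genes of highest r (over groups of at least 50 cells, genes of at least 10 CPM in 1 group, markers left out), and up to 4 genes per list and direction at least 2-fold changed in injured tubule-like cells. Genes outside this rule (Il6, Il6ra, F2, Plg, Umod, Zg16, Gp1bb and leading genes of classes) were named after their values were seen. Some genes that the rule names are not reported here. A gene at 0 in a class took 3 UMIs in counts past 2-fold. Matched depth was 1000 UMIs per cell, drawn at random. Cell calling and ratios were tested on simulated data. Python 3.11.15, numpy 2.4.6 and scipy 1.17.1 were used.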

Additional observations from a re-analysis of the deposited data

Results flagged for a closer look

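Barcodes called as cells but above the mitochondrial limit (12141 with at least 200 genes) were used in no comparison, and they held UMIs of each gene above the level that 3 UMIs make (0.0553 CPM). Fgg stood at 85.9, Fga at 30.6 and Fgb at 18.3 CPM in them. F3 stood at 22.9, Plau at 35.8, Plat at 2.67 and Plaur at 2.36.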

How the results depend on the processing

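The comparison of injured tubule-like with proximal tubule-like cells was recomputed under 12 alternatives chosen at the start (each left-out library counted within 1 of them) and 2 added after seeing the data. For the summed chains (0.84), the log2 ratio was 0.92 with the first calling step only, 1.17 at a class limit of 0.2, 0.36 at 3 times the next score, 1.72 with injured cells taken from Havcr1 and Krt20, 0.74 as a mean of per-cell levels, 0.77 at 1000 UMIs, 0.55 after the lymphocyte level was subtracted, 2.68 with proximal tubule-like cells with injury markers as the injured class, and 0.55 to 1.44 without 1 library. For F3 (1.07) it was 0.97 at 10% mitochondrial counts, 1.16 at 3 times the next score, 1.21 with Havcr1 and Krt20, 1.15 as a mean of per-cell levels, 1.20 at 1000 UMIs, 1.16 without the 5% of cells of most UMIs, 1.29 with proximal tubule-like cells with injury markers, 0.96 as a mean over libraries, and 0.90 to 1.23 without 1 library. The count of 5 genes was 3 at 10% mitochondrial counts and as a mean over libraries, and 4 to 5 without 1 library. No share of all genes is given at these settings, so nothing is read from these counts. For the other 6 genes, 104 of 106 values kept their direction. Fga turned to -0.028 at 3 times the next score and to -0.25 as a mean over libraries. With the lymphocyte level subtracted, Plat and Plaur gave no ratio because a level was not above it, and so no count. The cause of these changes was not tested. Classes were paired within libraries in the means over libraries (0.82 for the summed chains), as values with no test. Between conditions, no paired analysis was possible because libraries are not tied to them. The main limits are the missing tie of libraries to conditions, the weight of library 3 and its free RNA.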
